A study of Mus musculus with 2 samples.

Results

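TGF-beta, BMP, activin and Smad genes were described in cortex from the left side of the brain of 2 male mice of the B6CASTF1/J strain, which are F1 hybrids of C57BL/6J and CAST/EiJ, aged 4 days after birth. Genes were chosen by symbol alone: the Tgfb, Bmp, Gdf and inhibin subunit genes, the receptors named Tgfbr, Bmpr and Acvr, and the Smad genes. The rule found 49 genes, all protein coding, among 22028 protein-coding genes and 55536 annotated genes. Each mouse gave 1 total RNA library from 300 ng of RNA, made strand-specific and reduced in ribosomal RNA with ERCC spike-in RNAs added, and the labels list the tissue of each library under its own donor. Neither animal was treated and no second group was sampled, so the data hold levels and the spread between 2 animals, and no contrast between conditions. The libraries are called replicate 1 and replicate 2, as in the labels.

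In this pathway a dimeric ligand brings together a pair of type I and a pair of type II receptors, and the type II receptor switches on the kinase of the type I receptor, which then phosphorylates a receptor-regulated Smad. Smad2 and Smad3 carry signals of TGF-beta, activin and nodal, and Smad1, Smad5 and Smad9 carry those of the BMPs. Both kinds pair with the common Smad, Smad4, and act on genes in the nucleus, while Smad6 and Smad7 inhibit the pathway. In the developing forebrain BMPs are known for dorsal patterning and for the formation of astrocytes, and TGF-beta signals for microglia, blood vessels and the growth of axons.

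Replicate 1 was sequenced to 26897687 expected counts and replicate 2 to 29511737. The 49 genes took 42112 counts, or 0.157% of the counts of annotated genes, in replicate 1 and 44954 counts, or 0.153%, in replicate 2. A count of 0 allows a level of up to 3 counts, equal to 0.112 counts per 1000000 in replicate 1 and to 0.102 in replicate 2. All 7 markers of cortical neurons passed a TPM of 1 in both libraries, with Slc17a7, the vesicular glutamate transporter, highest at 133 TPM in replicate 1 and 159 TPM in replicate 2. Markers of neighbouring tissue differed between the animals: the 5 olfactory bulb markers summed to 16.3 TPM in replicate 1 and 50.2 TPM in replicate 2, the 6 striatum markers to 81.6 and 122 TPM, and the 3 red blood cell markers to 148 and 304 TPM. Of the 7 choroid plexus markers, which summed to 26.8 and 60.5 TPM, Ttr carried nearly all of the gap, with 1.03 TPM in replicate 1 and 32.4 TPM in replicate 2, while Enpp2 had 24.0 and 25.4 TPM. The markers of those tissues that stood 1.5-fold or more apart were all lower in replicate 1. In tissue of mixed cells, fewer cells of a type and less RNA per cell cannot be told apart.

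A TPM of 1 was reached in each of the 2 animals by 34 of the 49, here called detected, which is 69.4%, beside 59.4% of all protein-coding genes. TPM is a level scaled to transcript length and library, so genes can be set side by side. The median over the 49 genes of their mean TPM was 4.43, beside 4.18 over all protein-coding genes. Among detected genes the order of the medians was the other way round, with 7.87 TPM for the 34 genes and 17.6 TPM for detected protein-coding genes, and 12 of the 34 lay above that second value. Those 12 were receptors, Smads, Inha and Bmp1, and no TGF-beta, BMP or GDF ligand was among them. Smad9 lay just above the limit, at 1.57 TPM in replicate 1 and 1.49 TPM in replicate 2, and Bmp5 just below it, at 1.25 and 0.92 TPM.

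**Figure D1:**
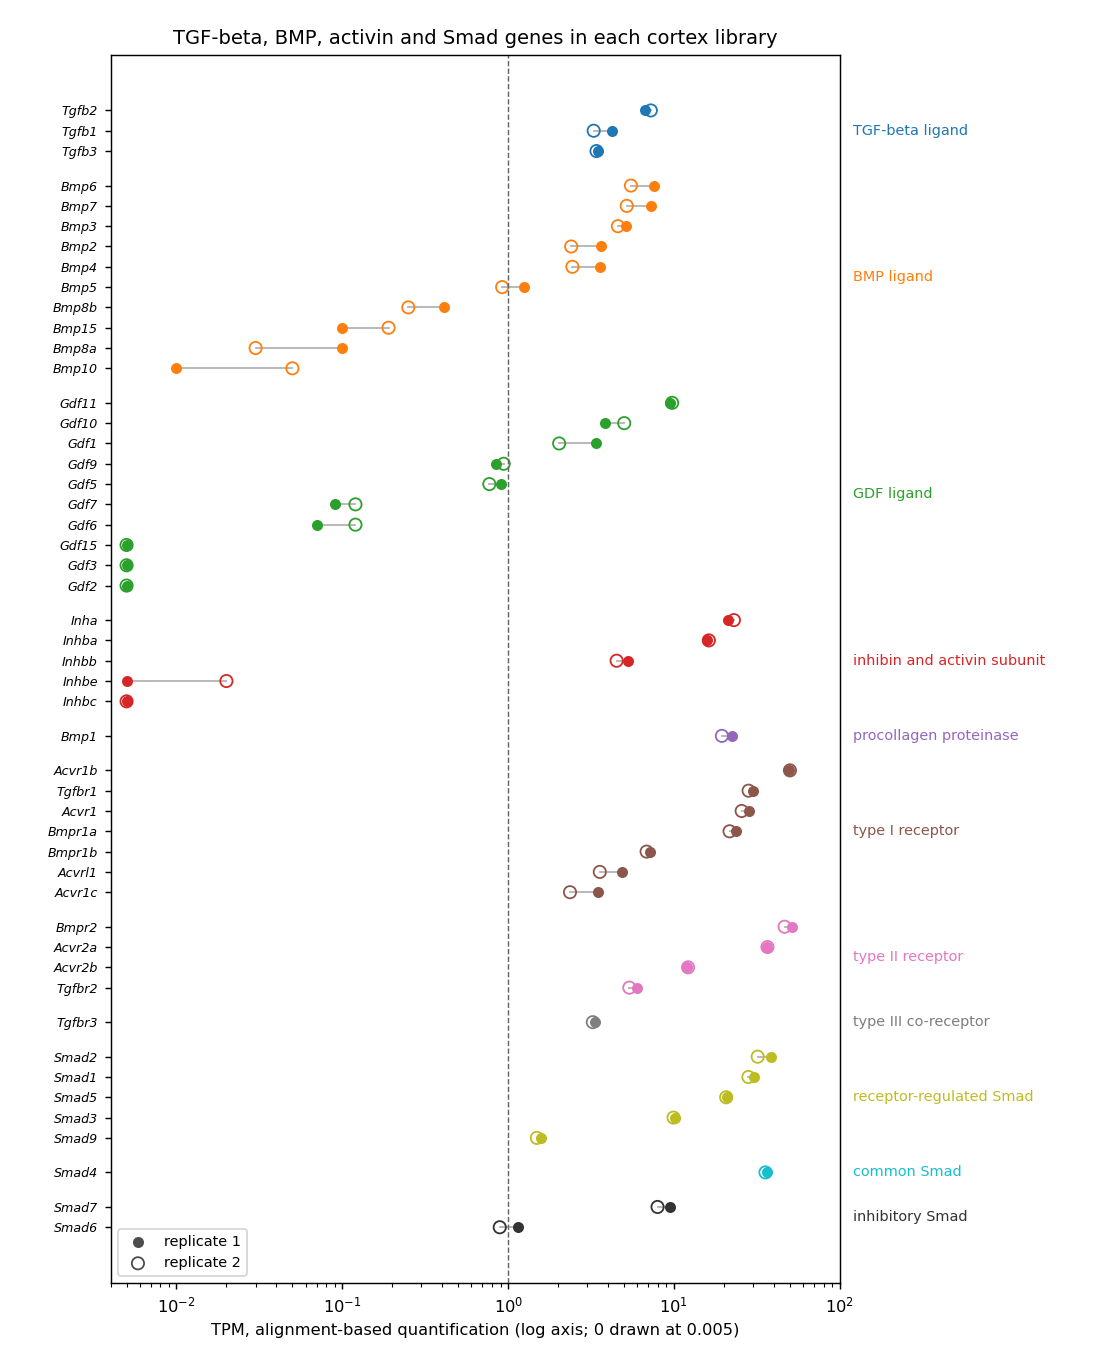
TPM of each of the 49 genes in the alignment-based quantification, on a log axis, with replicate 1 as filled and replicate 2 as open points and the genes grouped by role; the dashed line marks a TPM of 1. Receptors and Smads fill the right of the plot, and the ligands spread from 0 to 9.75 TPM, apart from the inhibin and activin subunits, which reach 23.0 TPM.

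All 7 type I receptors were detected, and their levels summed to 142 ± 6.0 TPM (SD, n = 2). Acvr1b, a type I receptor for activins, GDF11 and nodal (chr15:101174067-101213684, mm10, plus strand), was the highest of the 49 genes by mean, with 49.3 TPM in replicate 1 and 50.04 TPM in replicate 2. Tgfbr1, the type I receptor of TGF-beta, had 30.1 and 28.2 TPM in the same order. Neither range overlapped the other, and Acvr1b was 1.70-fold above Tgfbr1 by the mean of the 2 libraries. Of the BMP type I receptors, Acvr1 had 28.3 TPM in replicate 1 and 25.6 TPM in replicate 2. Bmpr1a, which binds BMP2 and BMP4, had 23.5 and 21.6 TPM. Bmpr1b, its close relative, had 7.17 and 6.84 TPM. Bmpr1a thus stood 3.19-fold above Bmpr1b, with log2 differences of 1.70 and 1.65 in the 2 libraries. Acvrl1, known from endothelial cells, and Acvr1c, a receptor for nodal and activin B, were the lowest. Acvrl1 had 4.85 TPM in replicate 1 and 3.57 TPM in replicate 2. Acvr1c had 3.48 and 2.36 TPM, so that Acvr1b exceeded it 16.8-fold.

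All 4 type II receptors were detected, summing to 103 ± 3.9 TPM (SD, n = 2). Bmpr2, the BMP type II receptor (chr1:59763400-59879014, plus strand), had 51.8 TPM in replicate 1 and 46.5 TPM in replicate 2, and its range overlapped that of Acvr1b. It also drew the most reads of the 49 genes, 10766 and 11140 expected counts. Acvr2a, a receptor for activins and for several BMPs, had 36.4 and 36.6 TPM. Acvr2b, with much the same ligands, had 11.9 and 12.2 TPM, and the order of this pair held in both libraries of both quantifications, with log2 differences of 1.60 and 1.58. Tgfbr2, the type II receptor of TGF-beta, was the lowest of the 4, with 6 TPM in replicate 1 and 5.38 TPM in replicate 2. That is 0.198 times the level of Tgfbr1, the receptor it works with. Tgfbr3, or betaglycan, which presents TGF-beta2 and inhibin to other receptors, had 3.35 and 3.24 TPM.

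The 5 receptor-regulated Smads summed to 96.8 ± 6.6 TPM (SD, n = 2). Smad2 had 38.4 TPM in replicate 1 and 32.0 TPM in replicate 2. Smad3, which acts on the same signals, had 10.2 and 9.94 TPM, and Smad2 was 3.46-fold above it. On the BMP side, Smad1 had 30.4 and 28.1 TPM. Smad5 had 20.96 and 20.64 TPM, and Smad9 stood far lower, as given above: Smad5 exceeded it 12.8-fold and Smad1 exceeded Smad5 1.40-fold. Smad4, the common partner, had 36.6 TPM in replicate 1 and 35.6 TPM in replicate 2. Its order against Smad2 did not hold, with log2 differences of -0.07 in replicate 1 and 0.16 in replicate 2. Of the inhibitory Smads, Smad7, which blocks both arms, had 9.50 and 7.96 TPM. Smad6, which mainly blocks the BMP arm, had 1.15 TPM in replicate 1 and 0.89 TPM in replicate 2, so Smad7 was 7.91-fold above it.

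Summed by arm, the 3 type I receptors of TGF-beta and activin (Acvr1b, Tgfbr1, Acvr1c) reached 81.7 ± 1.6 TPM and the 4 of the BMPs 60.8 ± 4.4 TPM (SD, n = 2). The log2 of the BMP sum over the TGF-beta and activin sum was -0.38 in replicate 1 and -0.48 in replicate 2, and -0.32 and -0.27 in the second quantification. For the receptor-regulated Smads the sign was the other way: 51.6 ± 1.9 TPM on the BMP side and 45.3 ± 4.7 TPM on the TGF-beta and activin side, with a log2 of 0.12 in replicate 1 and 0.26 in replicate 2. The second quantification gave 0.09 and 0.35. All of these differences are below 1.5-fold.

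The 3 TGF-beta ligands were detected at low levels, summing to 14.2 ± 0.31 TPM (SD, n = 2). Tgfb2 led, with 6.66 TPM in replicate 1 and 7.25 TPM in replicate 2. Tgfb1 had 4.23 and 3.28 TPM. Tgfb3 had 3.49 and 3.41 TPM, and its order against Tgfb1 changed between the libraries. Tgfb2 exceeded Tgfb1 1.84-fold and Tgfb3 1.99-fold, and both orders held throughout.

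Of the 10 BMP ligand genes, 5 were detected. Bmp6 had 7.60 TPM in replicate 1 and 5.50 TPM in replicate 2. Bmp7, made by meninges and choroid plexus among other tissues, had 7.27 and 5.19 TPM. Bmp3, which acts against other BMPs in bone, had 5.15 and 4.59 TPM. Bmp7 lay slightly below Bmp6 in both libraries, by log2 differences of -0.06 and -0.08, and by -0.29 and -0.38 in the other quantification. Bmp2 had 3.64 TPM in replicate 1 and 2.40 TPM in replicate 2. Bmp4, a classical dorsalising signal, had 3.57 and 2.44 TPM on only 55 and 66 expected counts, and its order against Bmp2 did not hold. All 5 were higher in replicate 1 by TPM, and the summed BMP ligand level of 25.3 ± 5.3 TPM (SD, n = 2) had the widest relative spread among the roles with 3 or more genes. By scaled counts, which leave out the transcript lengths behind a TPM, the log2 ratio of replicate 1 over replicate 2 was 0.09 for Bmp6 and -0.16 for Bmp4, with counting intervals that hold 0. Bmp8a and Bmp8b, known from germ cells, Bmp15, known from the oocyte, and Bmp10, known from the heart, stayed at 0.41 TPM or less in each library.

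Among the 10 GDF genes, 3 passed the limit. Gdf11, a relative of myostatin, had 9.40 TPM in replicate 1 and 9.75 TPM in replicate 2. Gdf10, a relative of Bmp3, had 3.85 and 5.01 TPM. Gdf1, a partner of nodal in left-right patterning, had 3.40 and 2.03 TPM, and this level is uncertain, because every 31-base word of its transcript also occurs in Cers1 on the same strand. Cers1, a ceramide synthase gene that shares a transcript with Gdf1, had 30.8 and 27.8 TPM. Gdf9, an oocyte factor, and Gdf5, a joint factor, lay between 0.77 and 0.94 TPM. Gdf6 and Gdf7 had at most 8 expected counts in a library. Gdf2 (BMP9, made by liver), Gdf3 (known from pluripotent cells) and Gdf15 (a stress-induced hormone) had 0 counts in both libraries.

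The inhibin and activin subunit genes were the most abundant ligand genes, summing to 43.1 ± 0.94 TPM (SD, n = 2). Inha, the alpha subunit found only in inhibins, which oppose activin (chr1:75507077-75510366, plus strand), had 21.2 TPM in replicate 1 and 23.0 TPM in replicate 2. Inhba, whose product forms activin A (chr13:16011851-16031621, plus strand), had 15.9 and 16.2 TPM. Inhbb, whose product forms activin B, had 5.30 and 4.51 TPM. Inhba exceeded Inhbb 3.24-fold and the order held throughout. Inhbc and Inhbe, both known from liver, had 0 counts in replicate 1, and 0 and 2 counts in replicate 2. Bmp1 is no ligand of this family but a metalloproteinase that cleaves procollagen and the BMP antagonist chordin, and it had 22.5 TPM in replicate 1 and 19.5 TPM in replicate 2.

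In the full order of the 34 detected genes by mean TPM there are 33 neighbouring pairs, and in 22 of them the ranges of the 2 libraries overlap. Gaps without overlap separate, for example, Bmpr2 from Acvr2a, Smad2 from Smad1 and Smad5 from Inhba. Gdf1 was also apart from Smad9, but its level is uncertain, and in the other quantification Smad9 was the higher, at 1.96 and 2.00 TPM. Smad3 was apart from Gdf11 too, but there Gdf11 was the higher, at 12.99 and 13.94 TPM beside 12.82 and 12.05 TPM. The gap between Tgfb3 and Tgfbr3 closed there, with 4.96 and 4.82 TPM beside 5.44 and 4.63 TPM. Of 21 pairs of related genes that were set against each other, 17 kept their order in both libraries of both quantifications. The 4 that did not were Tgfb3 against Tgfb1, Smad4 against Smad2, Bmp4 against Bmp2, and Gdf10 against Bmp3.

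The 2 animals were close for most of these genes. Expected counts of replicate 1 over replicate 2, scaled with TMM factors, were compared for the 37 genes with 50 or more counts in both libraries together. Gdf1 alone was 1.5-fold or more higher in replicate 1 (1 of 37, beside 1.86% of protein-coding genes), with a log2 ratio of 0.66 (95% counting interval 0.12 to 1.21), and it is the gene whose reads cannot be assigned with confidence. No gene was lower by that much (0 of 37, beside 2.19%). Within 1.2-fold lay 31 genes, or 83.8%, against 77.9% of tested protein-coding genes, and the median absolute log2 ratio was 0.10 against 0.13. The remaining 12 genes had too few counts. Intervals cover counting error only and say nothing about other animals, since each side is 1 animal.

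For 10 of the 37 genes, or 27%, the counting interval left out a log2 ratio of 0, beside 41.9% of tested protein-coding genes, so departures of this kind were found in many genes. Bmp2 had 214 expected counts in replicate 1 and 160 in replicate 2, a log2 ratio of 0.52 (0.22 to 0.83). Bmp7 had 427 and 357 counts, a log2 ratio of 0.36 (0.16 to 0.57). Gdf10 had 335 and 493 counts, a log2 ratio of -0.45 (-0.66 to -0.25). These 3 are, with Gdf1, the genes farthest from 0 among the 10, each with 1 animal per side and with intervals that were not adjusted for the number of genes. Tgfb2 was lower in replicate 1 at -0.26, Inha at -0.19, Smad3 at -0.17 and Acvr1b at -0.10, and Bmp3 was higher at 0.18 and Bmpr2 at 0.06. The 8 markers of meninges and fibroblasts had a median log2 ratio of 0.21 (-0.12 to 0.52 over genes) and summed to 614 TPM in replicate 1 and 564 TPM in replicate 2. The 7 astrocyte markers had a median of -0.20 and summed to 389 and 413 TPM, and the 5 olfactory bulb markers had a median of -1.92. Over markers with 50 or more counts, the median was -0.77 for choroid plexus, -0.59 for striatum and -0.95 for red blood cells. It was 0.22 for oligodendrocyte precursors, 0.13 for endothelium, -0.10 for progenitors and -0.08 for microglia. Mural cells and cortical neurons were both at -0.01. The part of these markers in the ratios of Bmp2, Bmp7 and Gdf10 was not tested.

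**Figure D2:**
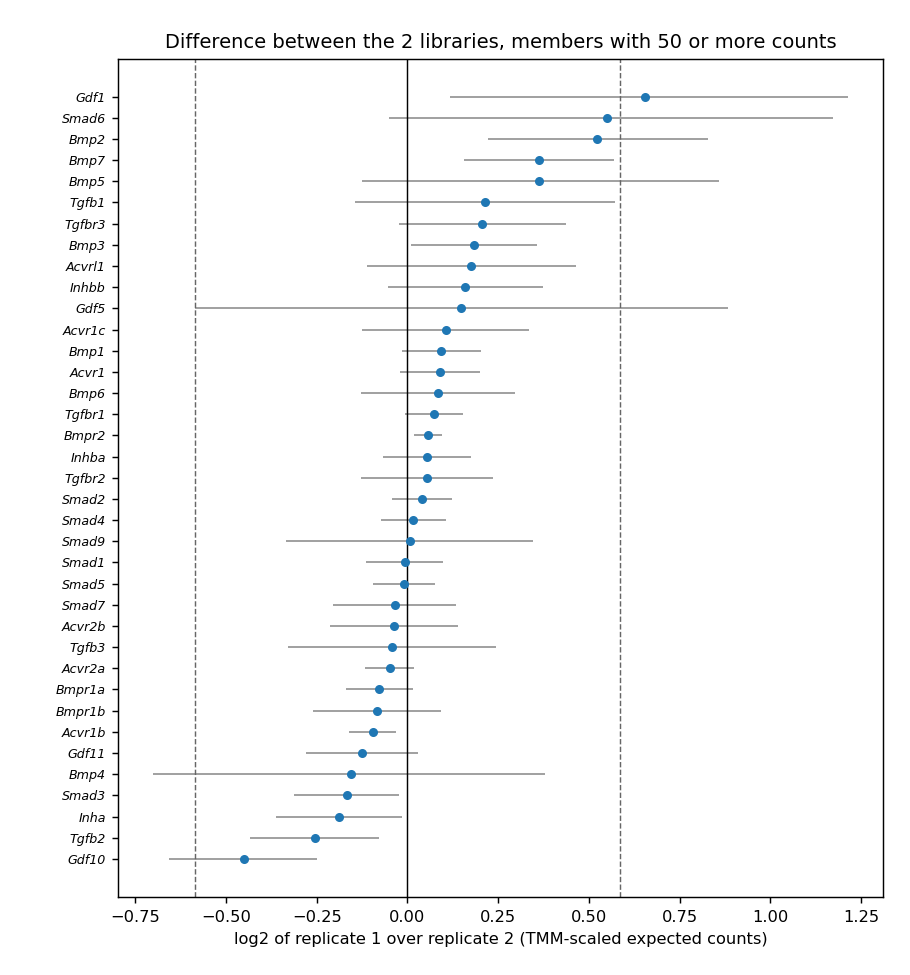
Log2 ratio of replicate 1 over replicate 2 for the 37 genes with 50 or more counts, ordered by ratio, with 95% counting intervals as bars and dashed lines at 1.5-fold. Gdf1, at 0.66, lies beyond the right dashed line, Smad6, at 0.55, and Bmp2, at 0.52, come next, and Gdf10, at -0.45, is lowest.

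A second deposited quantification of the same libraries gave TPM values that lay higher for detected protein-coding genes in general, by a median log2 of 0.55 in replicate 1 and 0.59 in replicate 2. Distances from that shift were averaged over the 2 libraries. The 33 detected genes with reads in both quantifications lay between -0.33 (Bmp4) and 0.19 (Bmp6) on the log2 scale, so none moved by 0.5 in this mean. In replicate 1 alone Bmp4 moved by more than 0.5, with a log2 of -0.01 beside the general 0.55. In replicate 2 it had 0.48 beside 0.59. Gdf1 had 72.4 and 48.8 expected counts in the alignment-based tables and no reads in the other. For Inhbe the other quantification was the higher one, with 48.6 estimated counts in replicate 1 and 35.2 in replicate 2, beside 0 and 2 expected counts. Acvr2a shares 7.32% of its 31-base words with the opposite strand of Orc4, an origin recognition gene at 44.4 and 39.7 TPM, and whether counting used strand is not given in the sources used here. Opposite-strand shares were also above 5% for Bmp6 (5.09%, mostly Txndc5), Tgfb3 (9.96%), Bmp8a (9.24%), Bmp8b (10.6%), Inhbc (13.1%), Gdf5 (39.7%) and Bmp5 (46.2%). The main partners of Tgfb3, Gdf5 and Bmp5 on that strand, Gm48008, Gm15557 and Gm26903, were at 0.03 TPM or less. Gm48008 held 6.8% of the words of Tgfb3. The Tgfb3 gene also overlaps Ttll5 on the opposite strand over 5149 bases, and Ttll5 had 18.4 TPM in replicate 1 and 14.6 TPM in replicate 2. The effect of this overlap on the level of Tgfb3 was not tested. Bmp8a shares 11.2% of its words with Bmp8b on the same strand.

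**Figure D3:**
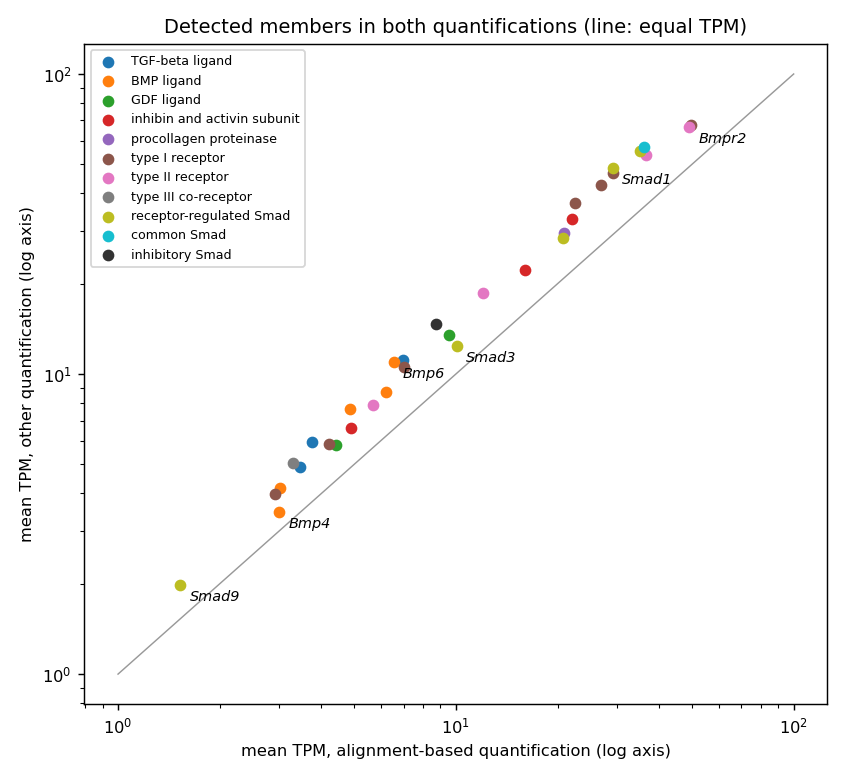
Mean TPM of the 2 libraries in the alignment-based quantification (x axis) and in the other quantification (y axis), both log axes, for the 33 detected genes with reads in both, coloured by role. All lie above the line of equal TPM and run parallel to it.

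Transcript shares, the percent of a gene's TPM held by each annotated transcript, showed 6 genes with a pair of protein-coding transcripts of different coding length that each held 10% or more in both libraries of both quantifications: Acvr1c, Acvr2b, Bmpr1a, Smad2, Tgfbr1 and Tgfbr2. The forms of 4 of them, Acvr1c, Acvr2b, Smad2 and Tgfbr2, were compared base by base. They differ by a coding segment whose length is a multiple of 3, so the reading frame goes on after it. Bmpr1a and Tgfbr1 were not compared in this way. At the other end, 10 detected genes had 1 transcript at 90% or more in all 4 measurements, but 8 of these have only 1 annotated transcript, which leaves Bmp7 and Bmpr2 as genes with a choice. Of the 19 detected genes with an annotated transcript that is not protein coding, 15 had 75% or more of their level in protein-coding transcripts in all 4 measurements, and the exceptions were Bmp1, Bmp4, Smad1 and Tgfb2. These transcript counts were not taken over all protein-coding genes, so whether they are usual cannot be said.

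The segments that tell the forms of 3 receptors apart are shown because the shares given after them turn on whether a transcript keeps its segment. They are copied from the GENCODE M21 transcripts, 5′ to 3′ on the gene's strand, with the segment in capitals between 15 bases of neighbouring transcript on each side. The Tgfbr2 segment spans 75 bases, or 25 codons (chr9:116158271-116158345, mm10, minus strand), the Acvr2b segment 72 bases, or 24 codons (chr9:119428353-119428424, plus strand), and the Acvr1c segment 240 bases, or 80 codons (chr2:58295926-58296165, minus strand).
Tgfbr2: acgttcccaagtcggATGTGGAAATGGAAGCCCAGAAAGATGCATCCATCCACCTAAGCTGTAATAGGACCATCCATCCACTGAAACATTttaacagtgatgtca
Acvr2b: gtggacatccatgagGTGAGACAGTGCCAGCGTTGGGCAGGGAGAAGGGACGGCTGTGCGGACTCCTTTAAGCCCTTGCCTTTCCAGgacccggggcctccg
Acvr1c: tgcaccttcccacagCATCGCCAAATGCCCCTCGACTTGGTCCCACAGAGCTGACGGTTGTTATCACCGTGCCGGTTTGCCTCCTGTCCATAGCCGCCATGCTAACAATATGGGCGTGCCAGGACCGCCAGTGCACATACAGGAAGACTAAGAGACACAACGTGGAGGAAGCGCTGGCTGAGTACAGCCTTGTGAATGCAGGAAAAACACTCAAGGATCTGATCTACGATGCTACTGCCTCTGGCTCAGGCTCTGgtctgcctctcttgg

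The Tgfbr2 segment was the less used choice. The form with it held 31.2% of the gene in replicate 1 and 33.5% in replicate 2, and 30.6% and 32.9% in the other quantification. In mouse and human this longer receptor is known to carry extra residues in its ligand-binding part outside the cell. The annotated models of the 2 forms also differ beyond the segment, since the longer form ends in 6088 bases after the coding sequence and the shorter form in 1452, so the shares rest on more than the segment.

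Acvr2b showed a similar share. Of the transcripts that carry or skip its segment, those with it held 28.9% in replicate 1 and 31% in replicate 2, and 31.1% and 32.1% in the other quantification. The main transcript without it held 63.0% and 58.2% of the whole gene. That transcript ends in 1537 bases after the coding sequence, and the more used transcript with the segment in 57. These shares, too, rest on more than the segment. The segment begins with GT and ends with AG, the letters that bound most introns, so the shorter form treats as intron what the longer one keeps as exon. Forms of the mouse protein with and without this stretch next to the membrane are known.

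For Acvr1c the form with the segment was the more used one. It held 70.9% in replicate 1 and 72.1% in replicate 2 of the transcripts that carry or skip it, and 70.3% and 75.8% in the other quantification. The main transcript that skips it rested on 18.5 and 17.7 expected counts, and a fragment model of this gene took 23.1% of it in replicate 1 and 0% in replicate 2, so these shares are coarse. The form with the segment ends in 7468 bases after the coding sequence and the main transcript that skips it in 186.

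Smad2 carries a coding segment of 90 bases, or 30 codons, whose sequence is not shown. Transcripts with it held 65.0% in replicate 1 and 62.4% in replicate 2, and 65.0% and 63.4% in the other quantification. The form without it is known to bind DNA as Smad3 does, whereas full-length Smad2 does not. Transcripts that skip the segment held the remaining 35.0% and 37.6% in the alignment-based tables, and 35.0% and 36.6% in the other. The longest annotated model with the segment ends in 6236 bases after the coding sequence and the longest without it in 3. The Smad2 shares therefore also rest on more than the segment.

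**Figure D4:**
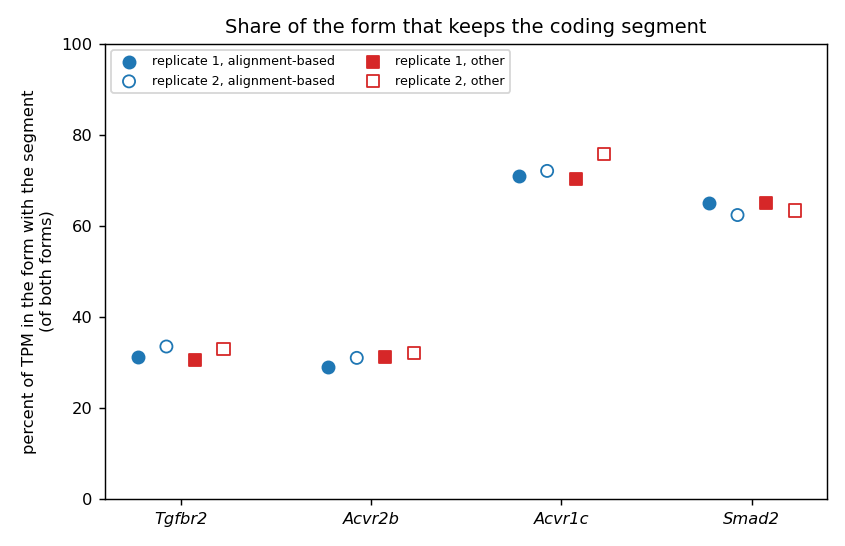
Percent of TPM in transcripts that keep the coding segment, out of those that keep or skip it, for Tgfbr2, Acvr2b, Acvr1c and Smad2, in replicate 1 (filled) and replicate 2 (open) of the alignment-based (circles) and the other (squares) quantification. Tgfbr2 and Acvr2b lie between 28.9 and 33.5%, Smad2 between 62.4 and 65.0%, and Acvr1c between 70.3 and 75.8%.

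Bmpr1a and Tgfbr1 had minor coding forms as well. A Bmpr1a transcript with 1500 coding bases, against 1596 in the main one, held 23.6% in replicate 1 and 17.4% in replicate 2. A Tgfbr1 transcript with 1302 coding bases, against 1509 in the main one, held 12.6% and 15.3%. Neither reached 20% in all 4 measurements, in contrast to Acvr2b, Smad2 and Tgfbr2. Inhba had 2 transcripts, both with 1272 coding bases. The one of 6390 bases held 54.1% in replicate 1 and 45.5% in replicate 2, and 62.3% and 51.0% in the other quantification, and the one of 1529 bases held the rest.

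Promoter windows of RefSeq, 250 bases before to 50 after the start on GRCm38.p6, matched 35 of the 49 genes. Counted as a C followed by a G, CpG sites were many at detected genes: 17 of 24, or 70.8%, held 20 or more, beside 56.6% of detected protein-coding genes. Among the 11 genes that were not detected, 3 did (Smad6, Gdf7 and Bmp8b), which is 27.3% beside 7.52% of other protein-coding genes. The median was 28.5 sites at detected genes and 6 at the others, beside 21 and 3 over protein-coding genes. The level did not follow the CpG number alone, since Inhba, at 15.9 and 16.2 TPM, had 7 sites, while Gdf7, at 0.09 and 0.12 TPM, had 26. For each gene the window nearest to its annotated start was taken, without a limit on the distance. Some windows therefore miss that start. The Inha window (chr1:75507359-75507658), with 5 sites, lies wholly after the gene start at 75507077. That of Bmpr1b (chr3:141982215-141982514, minus strand), also with 5, lies far inside the gene.

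The windows of the highest gene, Acvr1b, with 51 sites (chr15:101173822-101174121, plus strand), and of Bmp10, at 0.01 and 0.05 TPM, with 3 sites (chr6:87428744-87429043, plus strand), are set side by side to show the 2 kinds. They are written 5′ to 3′ with each CpG in capitals.
Acvr1b: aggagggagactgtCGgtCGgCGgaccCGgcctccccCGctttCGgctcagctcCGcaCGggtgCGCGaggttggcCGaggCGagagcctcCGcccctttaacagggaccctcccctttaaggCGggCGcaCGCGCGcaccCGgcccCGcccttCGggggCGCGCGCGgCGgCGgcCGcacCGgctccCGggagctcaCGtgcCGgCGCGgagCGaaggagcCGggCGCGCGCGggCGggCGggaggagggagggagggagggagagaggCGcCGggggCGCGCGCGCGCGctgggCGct
Bmp10: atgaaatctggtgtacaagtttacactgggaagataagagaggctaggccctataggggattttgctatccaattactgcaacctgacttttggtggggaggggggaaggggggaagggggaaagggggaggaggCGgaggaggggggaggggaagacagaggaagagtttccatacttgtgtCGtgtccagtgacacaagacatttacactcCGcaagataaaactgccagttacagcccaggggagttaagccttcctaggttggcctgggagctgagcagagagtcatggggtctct

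Both Smad-binding motifs searched, GTCTAGAC and GGCGCC, read the same on both strands and do not overlap with each other. GTCTAGAC, the palindrome that Smad3 and Smad4 bind in vitro, occurred in 1 of the 35 windows, that of Smad6, or 2.86%, beside 0.206% of protein-coding windows. GGCGCC, a GC-rich motif bound by BMP-activated Smads, occurred in 7 windows (Acvr1b, Bmpr1a, Gdf10, Tgfbr1, Smad9, Smad5 and Bmpr2), or 20%, beside 16% of protein-coding windows. A match is a run of letters and not a measured site. The Smad6 window (chr9:64022010-64022309, minus strand) is given with the match in capitals, as the only 1 of the 35 with GTCTAGAC. Smad6 is known as a gene that BMP signals switch on. GGCGCC did not occur in its window, other GC-rich motifs were not searched, and control of Smad6 was not tested.
Smad6: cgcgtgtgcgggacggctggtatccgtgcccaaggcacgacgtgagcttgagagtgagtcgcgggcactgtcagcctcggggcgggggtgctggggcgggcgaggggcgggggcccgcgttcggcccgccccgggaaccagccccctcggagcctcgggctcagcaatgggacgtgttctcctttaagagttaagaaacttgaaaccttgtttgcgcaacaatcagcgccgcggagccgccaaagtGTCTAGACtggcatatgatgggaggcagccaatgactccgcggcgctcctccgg

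Genes around the family were read from lists by function. Of 17 secreted binders and antagonists, 13 were detected (76.5%, beside 59.4% of protein-coding genes). Fstl1, a follistatin-like protein, had 37.6 TPM in replicate 1 and 30.9 TPM in replicate 2. Crim1, a membrane protein that holds BMPs, had 30.1 and 29.6 TPM, and Twsg1, a partner of chordin, 17.7 and 19.1 TPM. These 3 exceed every BMP ligand, and the lowest detected of the list, Fstl3, had 1.27 and 1.13 TPM. Grem1, a BMP antagonist just at the limit with 0.83 and 1.21 TPM, was 1.5-fold or more lower in replicate 1, at a log2 ratio of -0.61.

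Of 14 genes of latency and activation, 11 were detected (78.6%). Furin, the protease that cuts the precursors of the family, had 22.4 TPM in replicate 1 and 22.9 TPM in replicate 2. Ltbp4, which ties latent TGF-beta to the matrix, had 20.9 and 17.4 TPM, and Itgav, an integrin subunit that helps to release it, 15.3 and 14.4 TPM. Tll1, a relative of Bmp1, was the lowest detected at 1.70 and 1.71 TPM. Its relative Tll2 was not detected and was lower in replicate 1, on 25 and 50 counts, at a log2 ratio of -0.88.

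Of 7 co-receptors and decoys, 5 were detected (71.4%), and 3 of them were as high as or higher than most of the family's receptors. Neo1, or neogenin, a receptor for the repulsive guidance molecules, had 143 TPM in replicate 1 and 147 TPM in replicate 2. Rgma had 92.4 and 101 TPM, and Rgmb 43.6 and 44.7 TPM. Both encode repulsive guidance molecules, which are also BMP co-receptors. Bambi, a decoy receptor, was the lowest detected at 1.52 and 1.63 TPM.

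Of 13 Smad partners and turnover factors, 12 were detected (92.3%, beside 59.4% of protein-coding genes). Ppm1a, a phosphatase of Smads, had 117 TPM in replicate 1 and 140 TPM in replicate 2. Nedd4l, a ubiquitin ligase, had 79.3 and 60.2 TPM, and Ski, a co-repressor, 60.6 and 61.4 TPM. Tgif1, another co-repressor, was the lowest detected at 1.59 and 1.61 TPM. Of 6 family genes that the symbol rule leaves out, 1 was detected (16.7%). It was Lefty2, a nodal antagonist, at 4.94 and 5.41 TPM on counts that are not whole. Nodal itself had 0.09 and 0.05 TPM.

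Of 14 genes known as targets of the pathway in other settings, 10 were detected (71.4%, beside 59.4% of protein-coding genes). Id2, an inhibitor of basic helix-loop-helix factors, had 90.8 TPM in replicate 1 and 102 TPM in replicate 2. Id3 had 25.5 and 23.8 TPM, and Pmepa1, a TGF-beta target that dampens Smad signals, 22.7 and 19.5 TPM. Msx1, a homeobox gene and BMP target, was the lowest detected at 2.22 and 1.02 TPM, on 69 and 36 counts, and was higher in replicate 1 at a log2 ratio of 1.03. These levels are of transcripts, and signalling itself was not measured.

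**Figure D5:**
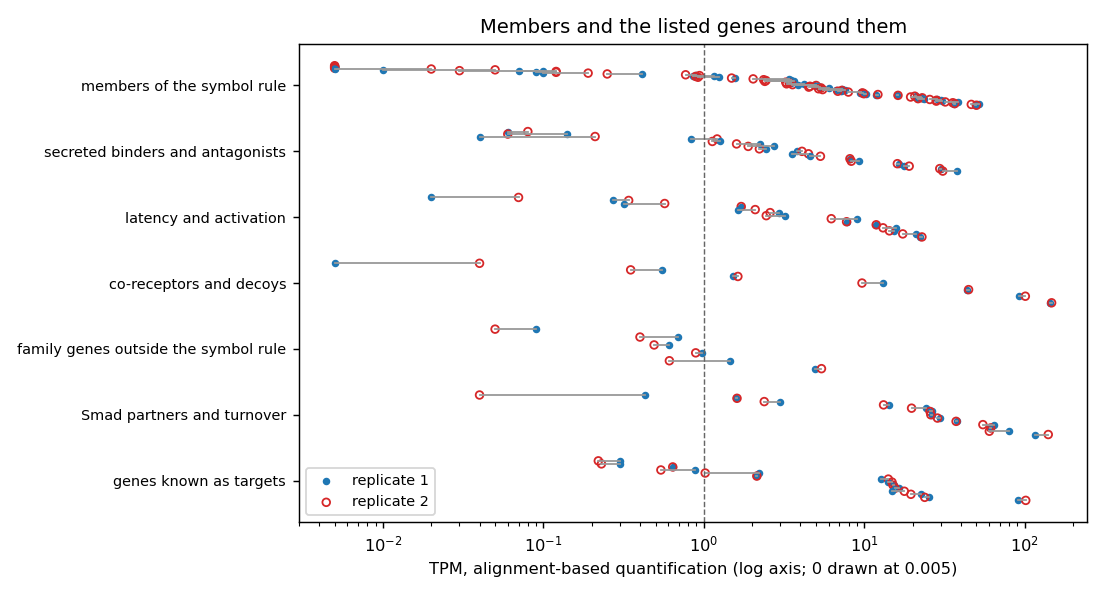
TPM in replicate 1 (filled) and replicate 2 (open) on a log axis for the 49 genes and for the genes of each pathway list, with the points of a gene joined by a line and a dashed line at a TPM of 1. Co-receptors and Smad partners reach 147 and 140 TPM, above the 51.8 TPM that is the highest value of the 49 genes.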

How the data were processed

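Per the file headers, the authors deposited expected counts, TPM and posterior mean TPM per gene and transcript, bounds of an interval on the TPM (a score that entered no result) and each transcript's percent of its gene. A second deposited transcript table gives estimated counts and TPM, summed here per gene. Per the labels, values refer to mm10, and identifiers match GENCODE M21. Names and versions of the aligner and quantifiers: not given in the sources used here. F1 alleles were not told apart.

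Detection meant a TPM of at least 1 in both libraries, and levels are means ± SD. Counts of replicate 1 were set over those of replicate 2 with edgeR 4.0.16 (TMM factors, prior count 0.5) in R 4.3.3, with exact binomial 95% counting intervals and no p-value, since each library is 1 animal; the step was tested on simulated data. Gene pairs were compared as log2((TPM + 0.1) of the first over the second). Alternatives included the size factors of DESeq2 1.42.0. Any member could be named; of other lists, the 3 highest, the lowest detected and those past 1.5-fold. Counts of the 2 libraries differed beyond read sampling (chi-square 171431 on 20364 degrees of freedom). Members, lists and pairs were chosen with earlier results of these data known.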

Additional observations from a re-analysis of the deposited data

How the results depend on the processing

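The number of detected genes, 34, was 38 at a TPM minimum of 0.5, 33 at a minimum of 2 and 36 in the other quantification, and leaving out 1 library gave 34 to 36. By construction, a lower minimum or 1 library left out cannot give fewer than 34, and a higher minimum cannot give more. The other quantification also gave higher TPM in general, at the same minimum. The median level of 4.43 TPM was 5.92 TPM in the other quantification, where protein-coding genes also moved, to 6.57 TPM; it was 4.74 with posterior mean TPM, 7.87 over detected genes only, and 4.51 to 4.85 with 1 library left out. The count of 1 gene past 1.5-fold between the libraries was 3 at a count minimum of 10 (Bmp15, Gdf1 and Gdf6), 0 at a minimum of 200, 0 at 2-fold, and 1 with total counts or the size factors of DESeq2; in the other quantification it was 1 and the gene was Smad6, not Gdf1. Total-count scaling moved all ratios by 0.03 on the log2 scale and the DESeq2 size factors by -0.02. Of 21 pairs, 17 to 21 kept their order under the alternatives. Those with the other quantification alone or 1 library left out ask fewer signs to agree, so they cannot give fewer than 17. None of the 126 recomputed pair values turned the sign of a pair whose order held, but only those from posterior mean TPM could have. The pseudocount is the same for both genes, and the other quantification and the single libraries are part of the rule for a held order. Values of the 4 pairs whose order did not hold are among the 126 and could not count. Genes with 2 coding forms numbered 6 by the alignment-based tables alone, 9 by the other alone and 3 at a share minimum of 20%; fewer genes can pass the higher minimum by construction. No paired analysis was possible because there is 1 group. With 2 animals no difference can be tested across animals, and genes under 50 counts were too shallow for a ratio.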

Other observations

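Ltbp1, which binds latent TGF-beta and was chosen after its values were seen, had 1.64 TPM in replicate 1 and 2.09 TPM in replicate 2 in the alignment-based tables, on 144 and 182 expected counts. The other quantification listed 49.8 and 36.8 TPM on 289 and 299 estimated counts. Averaged over the 2 libraries, the log2 distance between the quantifications was under 0.5 from the general shift for the 33 detected members with reads in both.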
